A study of Mus musculus with 4 samples.

Results

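The regions described here are the glucocorticoid receptor (GR) peaks that crowd around single genes in PDGFRa+ adipose progenitors. They were taken from a list of 10402 GR peaks in that cell type. Peaks on autosomes whose detailed annotation named no repeat element were kept, which left 6327 eligible peaks, and these were counted for the gene that the list names as nearest. All 467 peaks of the 80 genes with 5 or more such peaks are the members, which were thus chosen by the number of peaks per gene in this list. The 80 genes were 1.82% of the 4390 genes with at least 1 eligible peak, and their peaks were 7.38% of the eligible peaks. The counts that chose these genes come from the same library as the positions and scores given below, so the counts, spacing and scores are descriptions, and no test was made of them.

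The series mapped GR by chromatin immunoprecipitation and sequencing in 2 cell populations, CD137+ and PDGFRa+ (also labelled CD140+), which were isolated magnetically from the adipose tissue of C57BL/6 mice. Both populations were cultured, exposed to an adipogenic cocktail and given 1 µM of the synthetic glucocorticoid dexamethasone, so the series holds no cells without the hormone. Each population has 1 GR immunoprecipitate and 1 input library, 4 in all. The labels give neither a genotype nor an age, and do not say whether animals were pooled or which fat depot gave which cells. Their extraction protocol speaks of embryonic cells, which goes against the adipose source. With 1 library per group there is no replicate spread. Intervals below are 95% Wilson intervals for shares, and they cover counting error only. The number of reads behind a peak is unknown. A peak list holds no expression values, so the labelled cell type could not be checked against its markers here.

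GR is a nuclear receptor that rests in the cytoplasm until a glucocorticoid binds it, and then enters the nucleus and binds DNA. Its classical site is an inverted pair of half-sites, which it occupies as a dimer. In fat cell progenitors glucocorticoids promote differentiation, and GR is known to act there largely at enhancers that lie away from promoters. A peak caller reports stretches with more reads than the background, and a gene name beside a peak says which start site is nearest, not which gene the site controls.

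Of the 467 member peaks, 10 lay within 250 bp of a start site, at 6 genes. The reference promoters of Fat4, the one wide-run gene whose peak is annotated as promoter, and of A530032D15Rik, a gene with a tight run of peaks, are shown because they let the position of such a peak be read on the sequence. Both are from RefSeq on GRCm38.p6 and run from 250 bases before the start to 50 after it, and capitals mark the stretch under the peak, placed by the distance given in the list on the assumption that its start site is the one in RefSeq.
Fat4 (chr3:38886690-38886989, plus strand): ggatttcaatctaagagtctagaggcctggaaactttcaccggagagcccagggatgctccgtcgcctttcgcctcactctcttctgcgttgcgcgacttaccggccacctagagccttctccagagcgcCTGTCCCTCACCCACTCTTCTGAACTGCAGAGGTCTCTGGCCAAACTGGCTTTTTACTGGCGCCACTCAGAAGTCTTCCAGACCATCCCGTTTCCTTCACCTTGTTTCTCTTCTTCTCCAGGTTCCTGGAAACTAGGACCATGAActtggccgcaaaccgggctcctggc
A530032D15Rik (chr1:85109804-85110103, minus strand): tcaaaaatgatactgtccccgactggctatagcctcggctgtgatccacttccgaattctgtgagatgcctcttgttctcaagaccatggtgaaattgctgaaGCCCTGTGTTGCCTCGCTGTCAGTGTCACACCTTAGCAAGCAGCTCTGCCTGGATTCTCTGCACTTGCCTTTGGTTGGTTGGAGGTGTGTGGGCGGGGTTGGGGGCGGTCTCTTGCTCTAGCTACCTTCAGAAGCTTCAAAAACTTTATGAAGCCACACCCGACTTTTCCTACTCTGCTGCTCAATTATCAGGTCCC
The Fat4 peak scored 31 and was centred 48 bp before the start site. That of A530032D15Rik scored 20, the lowest score among eligible peaks, and was centred 42 bp before it. The pair of half-sites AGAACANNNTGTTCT, which reads the same on both strands, was in neither window. It was in 3 of 32851 promoter windows of this length, which is 0.00913%. The half-site AGAACA, or TGTTCT on the other strand, was in 6233 windows (19.0%). It was not in the Fat4 window and occurred once in that of A530032D15Rik, starting at position -177 from the start site and outside the stretch in capitals. A match or its absence describes these letters only.

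Of 4 miRNA genes among the 80, 3 had mature sequences in the RefSeq table. They are shown to identify these small genes, with the seed (bases 2 to 8) in capitals. No seed was shared between them.
let-7j of Mir7j: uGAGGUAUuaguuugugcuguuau
miR-592-5p of Mir592: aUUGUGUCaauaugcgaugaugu
miR-592-3p of Mir592: uCAUCACGuggugacgcaacau
miR-691 of Mir691: aUUCCUGAagagaggcagaaaa
Mir691 had 5 peaks, of which 3 lay in the transcript of Robo2. Mir592 had 5, of which 4 lay in the transcript of Grm8, the gene of a metabotropic glutamate receptor. All 5 peaks of Mir7j were intergenic. Mir8099-1 had 5 intergenic peaks on chromosome 12, but its identifier stands on another chromosome in the RefSeq gene table, so no position of the gene itself is given.

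The 80 genes comprised 57 protein-coding genes, 17 non-coding RNA genes, 4 pseudogenes and 2 ribosomal or similar RNA genes, by the gene type given in the peak list. Most genes of the list had few peaks. A single eligible peak was nearest to 3225 genes, while 737 had 2, 232 had 3 and 116 had 4. Exactly 5 peaks were held by 44 genes, 6 by 18, 7 by 11, 8 by 3, 9 by 2 and 10 by 2. At the threshold, the peaks of genes with 5 and with 4 had median scores of 38 and 37.5, and their median spacings were 95.5 and 89.7 kb. The genes with 4 peaks included Nfia, Dsc3, Pard3 and Jag1.

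The runs of peaks of these genes were split into 2 groups, called wide and short. In 71 genes with 406 peaks, the run was wide, with a median of 795 kb from the first to the last peak. In the other 9 genes with 61 peaks it was short, with a median of 117 kb. Spans overlapped between the groups, since the shortest wide run was 147 kb and the longest short run was 279 kb. The short-run genes were set apart after the values were seen, as those with a span under 300 kb and at most 1 peak of the least width in the list, 146 bp. Genes with a span under 300 kb but more than 1 peak of that width were counted as wide-run. The names therefore do not rest on span alone. The short-run genes were Rn45s, Rn4.5s, Pisd-ps3, A530032D15Rik, Sp110, Zfp985, 6820431F20Rik, Obox2 and 1700001F09Rik. Several of these are known to stand in families of near-identical copies, so their peaks are uncertain, since the files do not say how reads that match several copies were placed.

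**Figure D1:**
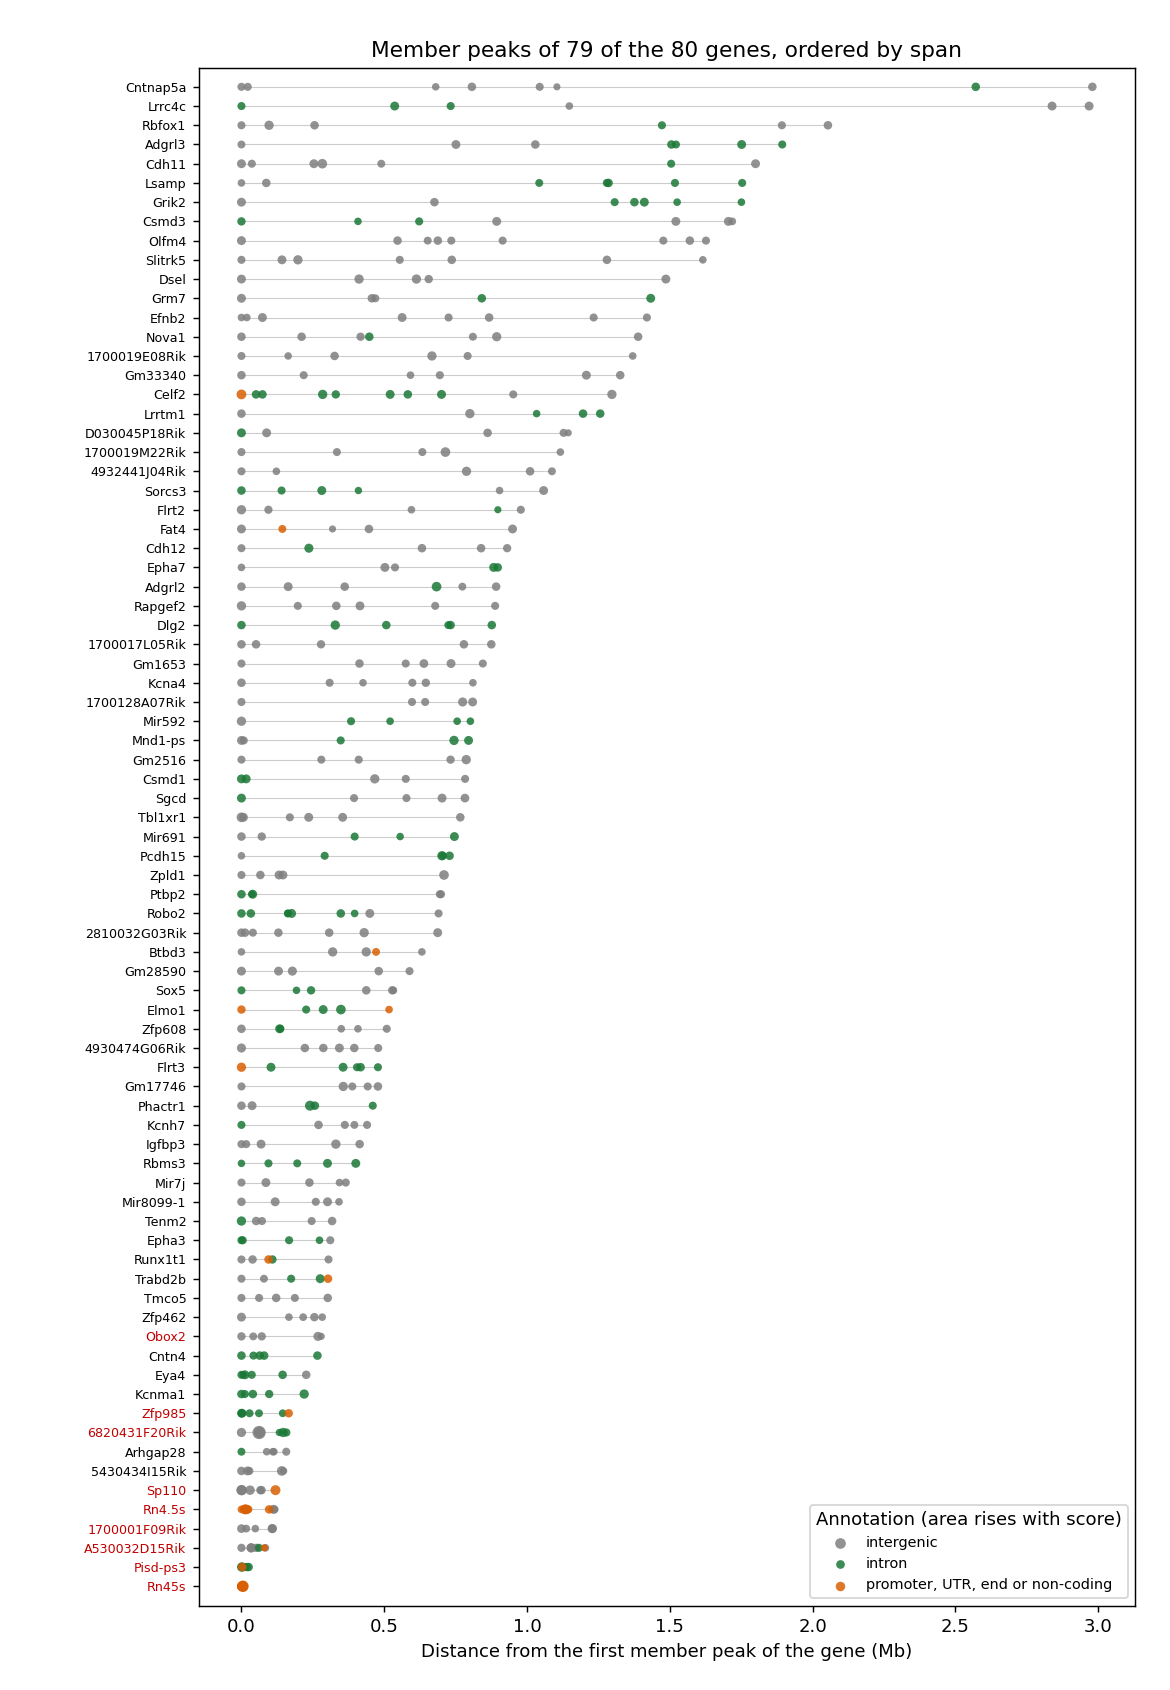
Member peaks of 79 of the 80 genes, 1 line per gene, by distance in Mb from the first member peak of the gene, with genes ordered by span. Each point is a peak, coloured by its annotation and sized by score, and short-run genes are named in red. Spans ran from 5.30 kb at Rn45s to 2980 kb at Cntnap5a.

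Neighbouring member peaks of a gene were a median of 103 kb apart over 387 gaps, with an interquartile range of 35.5 to 218 kb and a 95% interval of the median of 87.0 to 119 kb from order statistics. In the 71 wide-run genes the median was 127 kb over 335 gaps, and in the 9 short-run genes it was 7.78 kb over 52 gaps. All neighbouring eligible peaks of the autosomes were a median of 240 kb apart. Genes with 2 to 4 peaks had a median of 75.3 kb. A gap within a gene is held to the stretch nearest to that gene, so these medians differ by construction from that of all neighbours. Only 16 of the 335 wide-run gaps were below 10 kb, and 196 were 100 kb or more. Among the short-run gaps, 28 of 52 were below 10 kb.

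**Figure D2:**
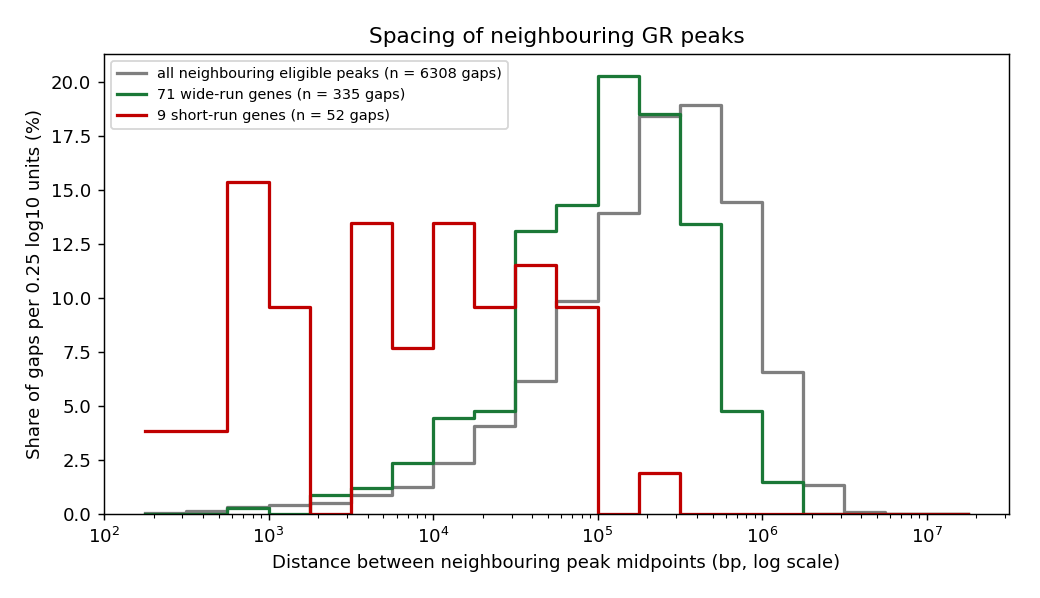
Share of gaps between neighbouring peak midpoints per bin of 0.25 log10 units, against the gap in bp on a log axis, for all eligible peaks, the 71 wide-run and the 9 short-run genes. The wide-run curve peaks above 100 kb, and the short-run curve lies mostly below it, with 1 gap of 100 kb or more.

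Pairs of peaks less than 1 kb apart occurred 13 times, 12 of them in short-run genes. The closest lay in Rn45s, at 306 bp, in A530032D15Rik, at 312 bp, and again in Rn45s, at 432 bp. Pisd-ps3 held pairs at 463 and 854 bp, 6820431F20Rik one at 804 bp, Sp110 one at 858 bp and 1700001F09Rik one at 962 bp. The remaining pairs were in Rn45s, but for 1 in Robo2, where peaks with scores of 25 and 31 lay 758 bp apart.

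Among the protein-coding members, the largest group was that of cell adhesion genes, the cadherins, latrophilins and leucine-rich repeat proteins that join cells, many of them known from synapses. The list, made from gene family names, had 114 genes with an eligible peak, and 17 of them (14.9%) reached 5 peaks, against 1.82% of all genes with a peak. Per Mb of territory, however, adhesion genes had 1.47 eligible peaks and all protein-coding genes 2.03. A territory is the gene with the nearer part of the gap to each neighbouring protein-coding gene. Cntnap5a, of the contactin-associated family, led with 8 peaks.

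Cntnap5a had scores, in order along chromosome 1, of 33, 33, 25, 41, 33, 20, 41 and 41. Its run went from 115761700 to 118741632 in the list's own coordinates, which do not match GRCm38 and are used for all peak positions below. Of its peaks 7 were intergenic and 1 was in an intron, and the nearest lay 715171 bp from the start site. Cdh11, a cadherin of mesenchymal cells, had 7 peaks with scores of 49, 33, 49, 65, 31, 33 and 49. The first 5 lay over 1 Mb downstream of the start site, one was in an intron 15410 bp from it, and one lay 280116 bp upstream (chromosome 8, 103788706 to 105589200). The gap that splits this run was 1015 kb wide.

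Slitrk5, of a family of neuronal transmembrane proteins, had 7 intergenic peaks with scores of 33, 49, 58, 33, 41, 41 and 26, on both sides of a gene only 8.0 kb long (chromosome 14, 111725155 to 113341164). Lsamp, an immunoglobulin-domain adhesion gene and with 2197 kb the longest member, had 7 peaks, 5 of them in introns. Adgrl3 and Adgrl2, which encode latrophilins, had 7 and 6 peaks with highest scores of 49 and 67. Flrt3 and Flrt2, whose products are ligands of latrophilins, had 6 and 5.

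Lrrc4c, a netrin-G ligand gene, had 6 peaks spread over 2968 kb, the lowest density of peaks per span among the 80 genes, at 2.02 per Mb. One lay 2067966 bp from the start site, the farthest of any member peak. Fat4, an atypical cadherin that acts upstream of the Hippo pathway, had 5 peaks with scores of 49, 31, 20, 41 and 49. The first was 143277 bp upstream, the second was the promoter peak shown above, and the others were intergenic, up to 806062 bp from the start site (chromosome 3, 38642513 to 39591997). Lrrtm1, Pcdh15, Cdh12, Cntn4, Tenm2 and Sgcd had 5 peaks each, with highest scores between 41 at Cntn4 and 58 at Lrrtm1, Pcdh15 and Tenm2. All 5 peaks of Cntn4 were in introns.

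Axon guidance genes, ligands and receptors that steer growing nerve fibres and vessels, had 4 members among 27 genes with a peak (14.8%, against 1.82% of all). Per Mb of territory they had 1.89 eligible peaks, against the 2.03 of all protein-coding genes. Efnb2, the ligand ephrin-B2, had 8 peaks with scores of 26, 26, 49, 49, 33, 41, 33 and 33 (chromosome 8, 7183781 to 8603831). All were intergenic and on the downstream side of the start site, between 57062 and 1476920 bp from it. Robo2, a receptor for Slit proteins, had 9 peaks with scores of 41, 41, 25, 31, 49, 41, 26, 49 and 33, of which 7 were in introns (chromosome 16, 74645109 to 75335630). Counted by transcript, Robo2 held 10 peaks, since 3 that the list names after Mir691 lie inside it and the 2 intergenic ones do not. Epha7 and Epha3, ephrin receptors, had 5 peaks each, with highest scores of 49 and 33.

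Channels and glutamate or GABA receptors had 5 members among 70 genes with a peak (7.14%, against 1.82% of all), and 1.88 eligible peaks per Mb of territory, against 2.03 in all protein-coding genes. Grik2, a kainate receptor subunit, had 7 peaks with scores of 49, 41, 33, 41, 49, 26 and 26, the first of them 1932359 bp from the start site. Kcna4, a voltage-gated potassium channel, had 6 peaks, all intergenic. Kcnma1, a calcium-activated potassium channel, had 5 peaks within 220 kb, all in introns, with scores of 41, 33, 41, 37 and 58. Kcnh7, another potassium channel, and Grm7, a metabotropic glutamate receptor, had 5 each.

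A list of RNA-binding proteins, mainly splicing regulators, had 5 members among 19 genes with a peak (26.3%, against 1.82% of all). That list was drawn up after the members were seen, so its share is not independent of them. Its genes had 2.65 eligible peaks per Mb of territory, above the 2.03 of all protein-coding genes. Celf2 had 10 peaks, as many as any gene, with scores of 71, 41, 41, 58, 38, 49, 41, 50, 33 and 58 (chromosome 2, 6464951 to 7762371). Of these 7 were in introns, 2 were intergenic, and the highest was in the 3' untranslated region. They were assigned to 6 start sites, and the nearest lay 2334 bp from one. Nova1 had 7 peaks with scores of 41, 41, 37, 41, 32, 57 and 41, 6 of them intergenic. Rbfox1 had 6, Ptbp2 5 and Rbms3 5.

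Rbms3 had the most even run. Its 5 peaks, all in introns, had scores of 25, 33, 31, 49 and 49, and the gaps between them ran from 94.6 to 106 kb. The SD of these gaps was 0.0468 of their mean, against a median of 0.887 over the 80 genes and a highest value of 1.84 at Ptbp2. At Ptbp2, 655 of 699 kb of the run was a single gap, and 3 of its 5 peaks lay in the transcript of the neighbour Dpyd.

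Of 182 developmental transcription factor genes with a peak, 1 (0.549%) reached 5, against 1.82% of all genes with a peak. This order turned 1 step below the threshold, where 11 of the 182 (6.04%) had 4 or more peaks, against 196 of all 4390 genes (4.46%), so the factors are not shown to be fewer among genes with many peaks. The member was Sox5, an HMG-box factor, with scores of 33, 25, 38, 41, 41 and 25 (chromosome 6, 143800821 to 144333220). Its first 3 peaks were in introns and the others were intergenic. Obox2, a homeobox gene that was also a member, is not in this list. Factors of this list did have peaks: 27.9% of its protein-coding genes had at least 1, and it had 2.01 eligible peaks per Mb of territory, close to the 2.03 of all protein-coding genes. Their territories were smaller than those of adhesion genes, with medians of 83.7 and 133 kb. Zinc finger genes named Zfp had 3 members among 67 with a peak (4.48%, against 1.82% of all), namely Zfp985, Zfp608 and Zfp462 with 7, 6 and 5 peaks. They had 2.89 eligible peaks per Mb of territory, above the 2.03 of all protein-coding genes.

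No gene of the glucocorticoid and adipose lists was a member. Glucocorticoid response genes had 14 genes with a peak and no member, and Nr3c1, which encodes GR, came closest with 3, followed by Lpin1 and Sgk1 with 2. Adipogenic transcription factors had 11 genes with a peak and no member, with Mecom and Nfia at 4. Adipose progenitor markers had 10 and no member, with Tcf21 at 3. Hippo and TEAD pathway genes had 1 member among 11 (9.09%, against 1.82% of all), a share that rests on 1 gene. This was Fat4, which is also counted among the adhesion genes. Of growth factors and their receptors and binding proteins, 1 of 81 was a member (1.23%, against 1.82% of all). It was Igfbp3, an IGF-binding protein gene, with 5 intergenic peaks scoring 33, 33, 49, 59 and 41. All lay upstream, between 265929 and 679842 bp from the start site. Signalling inhibitors had 19 genes with a peak and olfactory and vomeronasal receptors 64, without a member, and the highest counts were 4, at Fstl5 and Olfr161. With so few genes in the short lists, a count of 0 is near what 1.82% gives.

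Eligible peaks per Mb of territory lay on both sides of the 2.03 of all protein-coding genes in these lists. Glucocorticoid response genes had 2.98, adipose progenitor markers 3.86, Hippo and TEAD genes 4.36 and adipogenic factors 2.32, which rest on 18, 14, 20 and 21 peaks. Growth factors and their receptors had 2.53, on 115 peaks. Signalling inhibitors had 1.76 and olfactory and vomeronasal receptors 1.48, on 29 and 76 peaks.

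**Figure D3:**
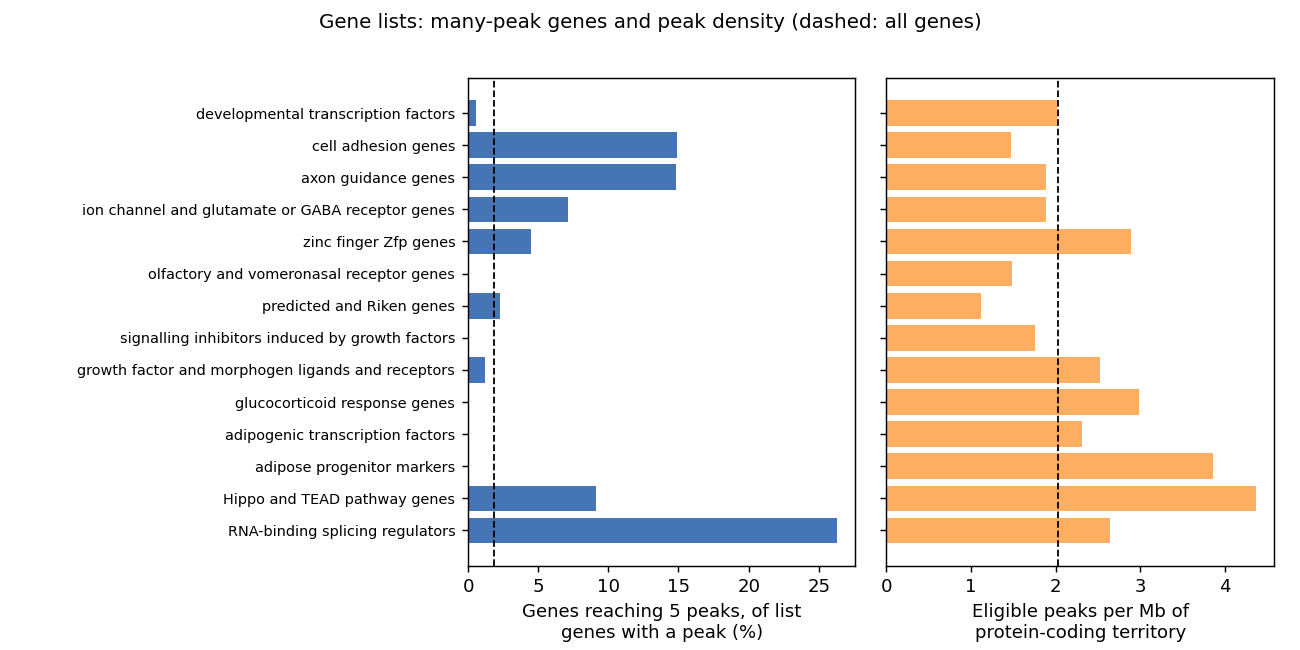
Left, genes with 5 or more peaks as a percentage of the list genes with an eligible peak. Right, eligible peaks per Mb of protein-coding territory. Dashed lines show all genes, at 1.82% and 2.03 per Mb. Adhesion genes stand above the line on the left and below it on the right.

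Predicted and Riken genes supplied 17 members, 2.28% of 744 with a peak, which is near the 1.82% of all genes. The protein-coding ones had 1.12 eligible peaks per Mb of territory, below the 2.03 of all protein-coding genes. Of the 17 members, 2810032G03Rik had 7 intergenic peaks within 687 kb with scores up to 58. 1700019E08Rik, 4930474G06Rik, Gm1653 and Gm33340 had 6 intergenic peaks each. 5430434I15Rik had 5 within 147 kb, at 34.0 per Mb the densest wide run. It lay beside Fat4, so that 10 member peaks of both genes fell within 1550 kb. In the same way Mir8099-1, Flrt2 and 1700019M22Rik shared a stretch of 2679 kb with 15 peaks. Mir691 and Robo2 shared one with 14, and Adgrl2 and Gm1653 one with 12. With runs joined where they lay within 500 kb, the 80 genes fell into 75 loci.

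In none of the lists were 27 genes. Olfm4, a secreted glycoprotein of intestinal crypts, had 9 peaks scoring 49, 41, 31, 41, 33, 33, 33, 41 and 33 (chromosome 14, 80685816 to 82312746). All were intergenic and downstream, between 285779 and 1912564 bp from the start site of a gene 22.8 kb long, which stands beside a gap of 4420 kb without a protein-coding gene. Csmd3 and Csmd1, large transmembrane proteins with CUB and sushi domains, had 7 and 5 peaks. Dlg2, a scaffold protein of synapses, had 6, all in introns. Tbl1xr1, a subunit of nuclear receptor corepressor complexes, had 6 upstream peaks scoring 67, 49, 33, 49, 49 and 41, and Rapgef2, an exchange factor for Rap, had 6 downstream. Eya4, a transcriptional coactivator and phosphatase, had 6 within 227 kb, 5 of them in introns.

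Others of these 27 had a peak at the start site or a high score. Elmo1, an engulfment gene, had a peak of score 38 in its 5' untranslated region, 151 bp from the start, and Runx1t1, a corepressor gene, had one of score 41 at 162 bp. Phactr1, a regulator of actin and phosphatase 1, held the highest score of any wide-run gene, 77, in an intron (chromosome 13, starting at 42882886). Arhgap28, a GTPase-activating protein gene, had 5 peaks within 157 kb, with scores of at most 33. Zpld1, Btbd3, Dsel, Sorcs3, Trabd2b, Tmco5 and Mnd1-ps, with the 4 miRNA genes, completed the wide-run genes of this group.

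Most protein-coding members lay in large territories, and the other members were given no territory. Among the 20665 autosomal protein-coding genes of GRCm38.p6, 57 (0.276%) were members. Their median territory was 1435 kb, against 348 kb for genes with 2 to 4 eligible peaks, 94.2 kb for those with 1 and 37.0 kb for those with none. Of 322 genes with a territory of 1 Mb or more, 37 (11.5%) were members. Between 300 kb and 1 Mb 14 of 1472 were (0.951%). From 100 to 300 kb 1 of 3599 was (0.0278%), and below 100 kb 5 of 15272 were (0.0327%). Eligible peaks per Mb went the other way, from 3.24 below 100 kb to 1.29 at 1 Mb or more. A gene that overlaps another was given no gap on that side, yet it takes peaks by its start site. Its density can thus be high, as at Flrt3 with 452 peaks per Mb. How far such genes raise the density below 100 kb was not tested. Non-coding genes inside a territory take peaks away from it, so densities are low where non-coding genes are many.

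**Figure D4:**
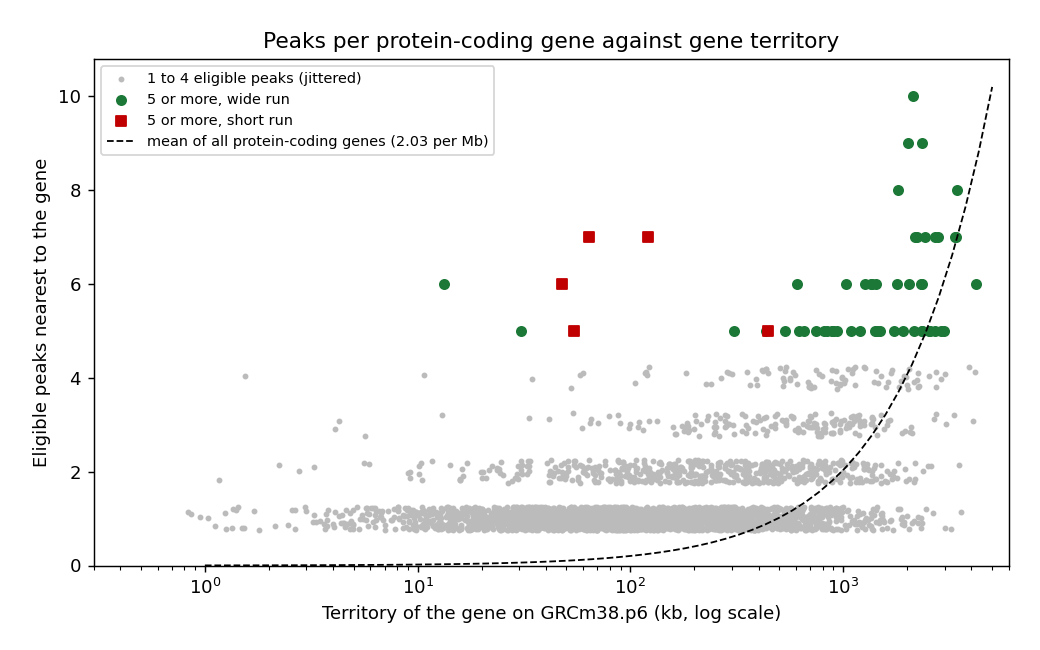
Eligible peaks nearest to each protein-coding gene, for genes with at least 1, against the gene's territory in kb on a log axis. Grey points are genes with 1 to 4 peaks, moved slightly at random, and the dashed curve is the mean of all protein-coding genes, 2.03 per Mb. Members lie mainly to the right. Short-run genes lie between 47.6 kb at Sp110 and 445 kb at Obox2, a range that also holds wide-run genes such as Arhgap28. The wide-run genes Flrt3 and Lrrtm1 lie lower, at 13.3 and 30.7 kb.

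The territories were large in different ways. A gap of over 1 Mb to the next protein-coding gene lay on a side of 31 of the 57 genes, and 19 had one of over 2 Mb. Of the 57, 7 were genes shorter than 50 kb beside such a gap of over 1 Mb: Olfm4, Efnb2, Slitrk5, Kcna4, Igfbp3, Btbd3 and Dsel. Another 14 were themselves longer than 1 Mb, among them Lsamp, Dlg2, Csmd1, Robo2, Pcdh15 and Rbfox1. Neither a gene over 500 kb nor a gap over 1 Mb was present at 15 members, 5 of them short-run genes. Flrt3 and Lrrtm1, with territories of 13.3 and 30.7 kb, stand inside the longer genes Macrod2 and Ctnna2, whose introns held 5 and 3 of their peaks.

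Within large territories the density of peaks was close between gene families. Of adhesion genes with a territory of 1 Mb or more, 15 of 67 were members (22.4%), of developmental transcription factors 1 of 18 (5.56%), and of genes in neither list 21 of 237 (8.86%). Eligible peaks per Mb were 1.36 in these adhesion genes, 1.30 in the factors and 1.29 in all 322 genes. The 37 members of this size had between 1.42 peaks per Mb, at Lrrc4c, and 5.80, at Kcna4.

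Peaks with a repeat annotation, which the choice of members left out, were also most frequent at these genes. The 80 genes had 193 of them, 2.41 ± 2.39 per gene (SD over 80 genes), against 0.757 ± 1.16 in the 1085 genes with 2 to 4 eligible peaks and 0.284 ± 0.728 in the 3225 genes with 1. At least 1 repeat peak was nearest to 63 of the 80 genes, and Cntnap5a had most, 11, followed by Lrrc4c with 10 and Grik2 with 9. Per Mb of protein-coding territory the difference was smaller, at 1.62 repeat peaks in members, 1.30 in genes with 2 to 4, 1.32 in genes with 1 and 1.22 in all. These peaks come from the same library, so they are no replicate.

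Member peaks lay far from start sites. The median distance was 242 kb, against 36.4 kb for the 5859 eligible peaks of other genes. Of the members 70.0% lay over 100 kb from the start site (95% interval 65.7 to 74.0), against 27.7% (26.6 to 28.9) of the others, and 41 lay over 1 Mb away. Intergenic sequence held 63.8% of member peaks (59.4 to 68.0) and 47.1% (45.9 to 48.4) of the others. Introns held 30.6% (26.6 to 34.9) and 41.9% (40.7 to 43.2), and promoters 1.93% (1.02 to 3.62) and 4.28% (3.79 to 4.83). Genes with exactly 4 peaks, which are among the others, stood nearer to the members. Their peaks had a median distance of 166 kb, and 62.3% lay over 100 kb from the start site. Intergenic sequence held 61.4% of them, introns 35.8% and promoters 1.72%, so such locations are not particular to the members. All peaks were intergenic at 28 of the 80 genes and all were in introns at 4: Cntn4, Dlg2, Kcnma1 and Rbms3. Upstream peaks made up 42.6% (38.2 to 47.1) of the members and 41.4% (40.1 to 42.7) of the others. Of intron peaks, 30.1% of the members and 30.4% of the others were in a first intron.

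The score, given by the authors' list on a scale that is not stated, had a median of 41 in member peaks and 33 in the other eligible peaks. Scores of 50 or more were held by 62 member peaks, 13.3% (10.5 to 16.7), against 7.38% of all eligible peaks (467 peaks as well). In the wide-run genes this was 9.85% (7.32 to 13.1), and in the short-run genes 36.1% (25.2 to 48.6). Scores took few values: 33, 41, 49, 26, 25, 58 and 31 made up 86.5% of the wide-run peaks, 83.8% of the eligible peaks of other genes and 13.1% of the short-run peaks. Of the wide-run peaks 75.9% had the least width of 146 bp, as had 73.7% of the eligible peaks of other genes. The wide-run and short-run genes were split partly by peak width, and whether the score values go with width was not tested.

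The short-run genes each had their own layout. Rn45s, the 45S ribosomal RNA precursor, had 8 peaks within 5.30 kb, all in the non-coding transcript, scoring 46, 48, 48, 73, 48, 69, 110 and 129 from its start to its end (chromosome 17, 39979994 to 39985708). Their median width was 540 bp, and the widest had 1127 bp. Rn4.5s, a small RNA gene known to stand in tandem copies, had 10 peaks, 6 of them annotated as promoter (chromosome 6, 47605946 to 47722883). Those starting at 47618019, 47622317, 47626564 and 47630888 scored 72, 71, 41 and 27, and the median gap of the run was 4.31 kb. Pisd-ps3, a pseudogene, had 7 peaks within 25.3 kb, with scores from 25 to 64, of which 3 lay in the transcript of Sfi1.

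A530032D15Rik had 7 peaks within 83.8 kb, with scores of 36, 57, 52, 37, 33, 20 and 27. Sp110, of a family of nuclear body proteins with many copies in the mouse, had 6 peaks scoring 72, 91, 61, 36, 41 and 76 within 119 kb (chromosome 1, 87381724 to 87501133). The last was a promoter peak 520 bp upstream. 6820431F20Rik held the highest score of all members, 238, beside a peak of 114 (chromosome 8, starting at 19924391 and 19925254), and 4 others between 22 and 57. Zfp985 had 7 peaks scoring 39, 51, 22, 31, 30, 28 and 39, of which 5 lay in the transcript of its neighbour Zfp982. Obox2, an oocyte homeobox gene, and 1700001F09Rik had 5 intergenic peaks each, with highest scores of 53 and 51.

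The gene named by the list and the gene that holds the peak could differ. Of 161 member peaks whose transcript could be matched to a gene, 31 (19.3%) lay in a gene other than the one named, against 898 of 3082 (29.1%) for other eligible peaks. Macrod2 held 8 peaks, 5 of them named after Flrt3. Mnd1-ps had 3 of its 5 in Fhit. Counted by transcript, 26 genes held 5 or more, and 13 of these were among the 80. The highest counts were 10 at Robo2, 9 at Zfp982, 8 at Celf2 and Macrod2 and 7 at Sfi1, of which Robo2 and Celf2 were among the 80.

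In CD137+ cells the deposited table lists 30 genes with a called GR interval. Of these 10 had an eligible PDGFRa+ peak and none was a member, with Foxp1 and Tenm4 highest at 4 peaks each. With 10 such genes, a count of 0 is near what the 1.82% of all genes with a peak gives. The tables differ in kind and in build, so the member peaks themselves were not compared between the cell types.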

How the data were processed

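GR immunoprecipitates and inputs of CD137+ and PDGFRa+ cells were deposited as a gene table and a peak list. Per the submitters' processing notes, FastQC, Bowtie2, SAMtools, MACS2 and bedtools 2.17.0 were used, with mm10 named as the build and no role or threshold stated. The PDGFRa+ list carries the authors' peak score, a number on an unstated scale, and per the file headers each peak's annotation, nearest gene and distance to a start site. The CD137+ table holds deposited peak signal values, of which only the gene names were used. Neither the aligned read number nor the use of the inputs in peak calling is stated, and the inputs were not analysed here.

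The build of the list was checked. Of 447 member peaks, 29 implied a start site at most 1 kb from where GRCm38.p6 has it, so coordinates are printed as deposited and none was converted. The RefSeq table of GRCm38.p6 gave names, lengths and neighbours, and 79 of 80 genes matched by identifier.

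Counts per gene, spacing of midpoints, territories and shares were computed with Python 3.11.15, pandas 2.3.3, numpy 2.4.6 and scipy 1.17.1. The choice of members, the gaps and the merging of close peaks were tested on simulated data, and the other steps were not. No p-value was computed, since there was 1 library. The members and gene lists were chosen with earlier results of these data known. Named are the 30 genes with most peaks, members of the glucocorticoid, adipose and Hippo lists, the 10 closest pairs, the 10 densest runs, and for other lists the 5 genes with most peaks; all other genes named were chosen after their values were seen. Alternatives changed the minimum count, repeat filter, score, merging, distance, chromosomes and the CD137+ matching window. The values of 1 member gene are not reported here by name, though it stays in all counts.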

Additional observations from a re-analysis of the deposited data

How the results depend on the processing

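The main values were 80 genes, 467 peaks, a median spacing of 103 kb, 30.6% of peaks in introns, 63.8% intergenic, a median score of 41, and 1.25% transcription factors and 21.2% adhesion genes among the members. No paired analysis was possible because each group has 1 library and no test was made. Counts without the 9 short-run genes, by host transcript and of the least-width peaks were chosen after the data were seen. A minimum of 4 peaks gave 196 genes and 931 peaks, with 5.61% transcription factors, and one of 6 gave 36 and 247. Keeping repeat peaks gave 273 genes, which included all 80, with 1827 peaks, 81.1 kb, 24.8% in introns, 72.8% intergenic and 12.5% adhesion genes. Peaks at or above the median score gave 48 genes, 267 peaks, 122 kb and 0 transcription factors. Peaks within 100 kb of the start site gave 8 genes, 53 peaks, 7.32 kb, 26.4% in introns, 43.4% intergenic, and 0 transcription factors and 0 adhesion genes. By transcript there were 26 genes with 154 peaks, 62.0 kb, 94.2% in introns and 0.0% intergenic, since intergenic peaks then have no gene. Peaks of the least width gave 33 genes with 179 peaks, 141 kb and 35.8% in introns. None of these was short-run, which the definition of the short-run genes fixes in advance. Without the short-run genes the spacing was 127 kb. Merging within 1 kb gave 78 genes and 448 peaks, and adding the X chromosome gave 85 and 524. The median score stayed between 38 and 41 throughout. Of 82 values under an alternative, 51 lay within 1.5 times the main count or within its 95% interval, and 31 did not. The cause was not tested. The 51 include the CD137+ matching windows, which had to give 0, since no CD137+ gene was a member. No read depth was known, so how many weaker peaks each run would gain with more reads was not tested.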
